A study of Mus musculus with 8 samples.

Results

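Integrins and laminins are the receptors and the sheet by which a muscle fibre is tied to its surroundings, and other integrins are carried by white blood cells. The genes described are all targets of the expression table whose symbol names an integrin alpha or beta chain or a laminin alpha, beta or gamma chain. Symbols that contain bp or bl, as of binding proteins, were left out, and Itgb2l, which contains neither, was kept. There are 37 such genes among 23930 targets, 26 integrin chains and 11 laminin chains. They were sorted by known role into 6 chains of the muscle fibre, 9 chains of leukocytes and 22 others. The Itga10 chain, in the same role list, was not analysed here.

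Tibialis anterior (TA) muscle, which lifts the foot and is made mostly of fast fibres, gave 4 KO and 4 WT libraries. The KO mice carried an inducible HSA-Cre, a recombinase driven by a skeletal muscle actin promoter, and Lox sites in the gene of SDHC, a membrane anchor of succinate dehydrogenase (complex II). WT mice were littermates that carried this HSA-Cre but no Lox sites. Every mouse of both groups received tamoxifen at 12 weeks of age, and muscle was collected 3 weeks later. The promoter is active in muscle fibres, so the deletion is directed at fibres and not at the blood, vessel, nerve and connective tissue cells that share the muscle. The growth protocol names C57/B6 mice, while the genotype labels read C57BL/6 for WT and C57BL/7, C57BL/8, C57BL/11 and C57BL/12 for KO1 to KO4. The study concerns complex II in muscle respiration and fatigue, and the comparison here asks how the chains of fibre adhesion and of leukocyte adhesion differ in RNA level between KO and WT muscle.

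An integrin is a pair of 1 alpha and 1 beta chain that spans the cell membrane, and a laminin is a cross-shaped trimer of 1 alpha, 1 beta and 1 gamma chain in the basement membrane. In adult muscle the main integrin of the fibre pairs the alpha 7 and beta 1 chains and binds laminins that contain the alpha 2 chain. Loss of the alpha 2 chain causes a congenital muscular dystrophy. Leukocytes carry integrins built on the beta 2 chain, with which they hold to vessel walls and take up opsonised particles.

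The assay read 1 amplicon per gene, in RPM (reads scaled to a common library total), so levels of different genes are not compared below. The libraries held 5983175 to 9119006 reads, and 3 reads, taken as the floor of detection, were worth 0.329 to 0.501 RPM. Sdhc stood at 16.9, 46.5, 18.7 and 54.3 RPM in KO1 to KO4, against 737, 853, 848 and 748 RPM in WT1 to WT4 (BH adjusted p = 1.06e-05 from limma). The 10 muscle fibre markers, such as skeletal actin and muscle creatine kinase, summed to 166800 to 224100 RPM in KO and 153400 to 212900 RPM in WT. WT1 and WT4 held the highest levels of bone genes. The summed RPM of 8 osteoclast genes was 1.27 to 8.02 in KO, and 228, 29.1, 11.8 and 570.5 in WT1 to WT4. Many results below are therefore also given without WT1 and WT4. WT2 and WT3 stay in those runs, and in this sum they too lay above every KO library.

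None of the 37 genes passed the test of KO against WT. Of the 37, 27 had a mean of at least 1 RPM and were tested with limma on log2(RPM + 1), and 0 passed at a Benjamini-Hochberg (BH) adjusted p of 0.05, where 0.0273% of all 11004 tested targets did. At an unadjusted p under 0.05, 3 were lower in KO (limma), namely Itgam, Itgb1 and Itgb2. Over all tested targets 8.56% were lower at that level, so 3 of 27 is near the background share. No chain was higher at that level, where the background was 0.663%. Under TMM scaling 745 of all targets were lower and 363 higher at that level, where 942 and 73 were so as deposited, while of the chains 3 were lower and 0 higher under both. In 1 gene, Itgb5, no KO library reached the lowest WT library, where 4.56% of all tested targets did the same, and 0 lay wholly above, where 0.536% did. Itgal and Itgb3 reached the filter of 1 RPM only through WT. Of all 37, the KO mean was below the WT mean in 29 and above it in 8. Of the 27, 24 had a log2 fold change below 0, with a median of -0.23, where 59.2% of all tested targets were below 0 with a median of -0.05. Without WT1 and WT4, 0 of 25 tested chains had an unadjusted p under 0.05 (limma, background 3.97% lower) and the median was again -0.23, against -0.10 over all targets.

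**Figure D1:**
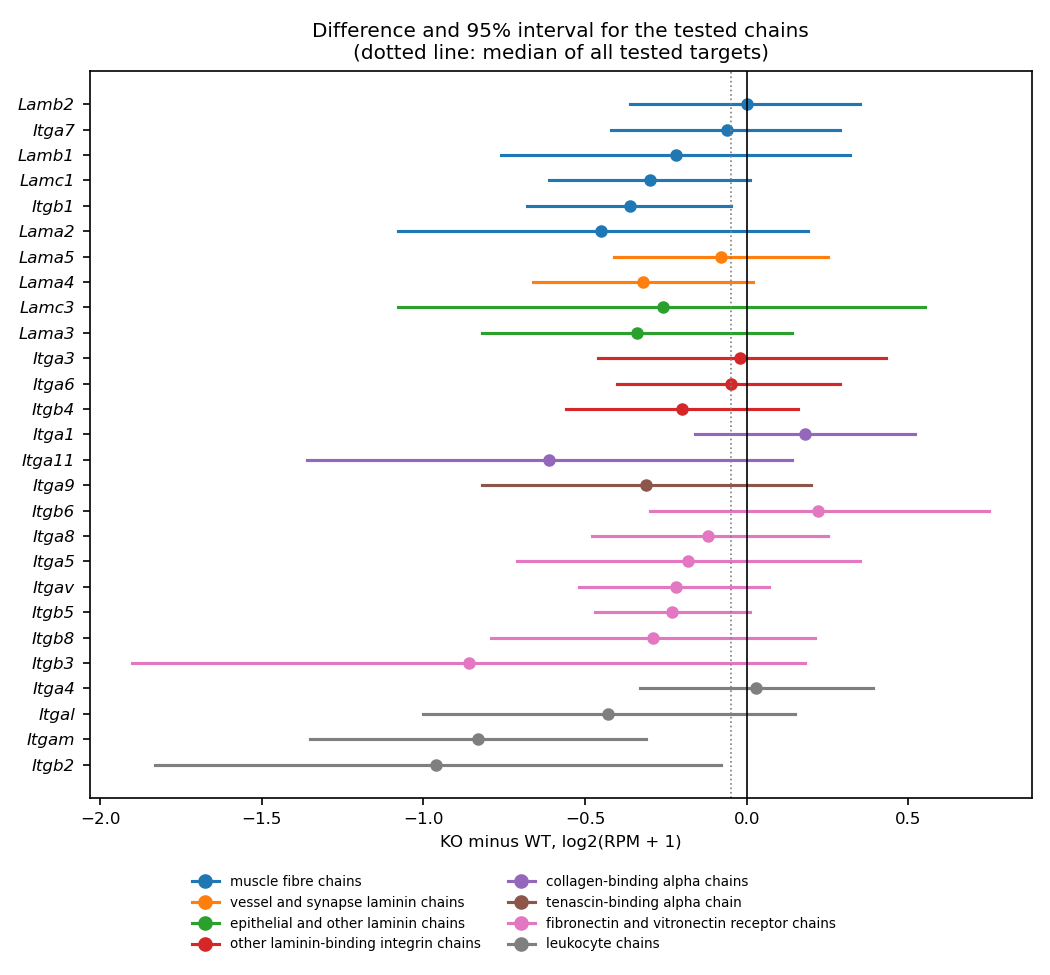
Log2 difference of KO minus WT for each of the 27 tested chains, on the log2(RPM + 1) scale, with its 95% interval from limma and n = 4 libraries each, coloured by role. Most points lie between -0.5 and 0, and the intervals of Itgam, Itgb2 and Itgb1 alone do not cross 0.

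Of the 9 leukocyte chains, the KO mean was below the WT mean in 6 and above it in 3, which were Itga4, Itgad and Itgb2l, and all but Itga4 rested on few reads. Only 4 could be tested, and 2 of them were lower at an unadjusted p under 0.05 (limma), where 8.56% of all tested targets were. The median log2 fold change of the 4 was -0.63. As Itgal reached the filter through WT alone, this count and median are a description only. The median was -0.59 over the 3 tested without WT1 and WT4, -0.97 and -0.27 at pseudocounts of 0.1 and 5 RPM, and -1.0 in edgeR and in DESeq2. With a filter at 10 RPM, which left Itga4 alone, it was 0.03. Itgam, the alpha M chain of complement receptor 3 on macrophages and neutrophils, stood at 1.17, 2.25, 1.49 and 1.39 RPM in KO1 to KO4, against 3.84, 4.14, 1.86 and 4.87 RPM in WT1 to WT4. Every KO library but KO2 lay below every WT library, and KO2 lay above WT3 alone. The KO mean was 42.8% of the WT mean, with a log2 fold change of -0.83 (SE 0.24, BH adjusted p = 0.201 from limma), and the counts behind it were 47 reads in KO and 118 reads in WT. Leaving out WT3, the lowest WT library, brought Itgam past the threshold (-1.05, BH adjusted p = 0.0352 from limma, range over all alternatives 0.0352 to 1), and without WT1 and WT4 the value was -0.59. Without WT3, 130 of all 10994 tested targets passed, where 3 of 11004 did with all libraries. Itgam was the only chain that any alternative run brought past the threshold.

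The region around the start of Itgam is shown because Itgam had the smallest p among the 37 genes, beside that of Itgb1, the fibre chain with the smallest p. Both were taken from RefSeq (GRCm38.p6), 250 bases before to 50 bases after the annotated start on the plus strand. Capitals mark GAGGAA, the core letters of sites for PU.1, a transcription factor of myeloid cells, on either strand.
Itgam, chr7:128062390-128062689: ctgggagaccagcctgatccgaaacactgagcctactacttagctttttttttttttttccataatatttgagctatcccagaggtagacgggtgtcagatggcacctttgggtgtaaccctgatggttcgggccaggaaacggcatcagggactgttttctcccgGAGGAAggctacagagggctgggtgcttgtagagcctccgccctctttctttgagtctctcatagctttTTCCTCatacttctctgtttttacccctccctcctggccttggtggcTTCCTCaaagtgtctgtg
Itgb1, chr8:128685404-128685703: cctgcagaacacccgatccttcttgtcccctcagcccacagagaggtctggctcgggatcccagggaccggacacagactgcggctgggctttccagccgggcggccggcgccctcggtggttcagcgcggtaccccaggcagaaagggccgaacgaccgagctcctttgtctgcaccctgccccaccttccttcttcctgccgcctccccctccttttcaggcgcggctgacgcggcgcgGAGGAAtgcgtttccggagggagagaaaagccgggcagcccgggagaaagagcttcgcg
Itgam held 3 matches, which began 84 and 15 bases before and 32 bases after the start, the first on the plus strand and the others on the minus strand. Itgb1 held 1 match, 9 bases before the start. Of all 32851 promoters of this length in the table, 28.3% held at least 1 match and 0.685% held 3 or more. The table had promoters for 23 of the 37 genes, 26 in all, and 15 of these (57.7%) held a match, among them 4 of 4 for fibre chains and 3 of 5 for leukocyte chains. The E-box CANNTG, a motif of muscle transcription factors, was in 23 of the 26 and in 72.3% of all promoters. A match in such a window is a description of its letters and not a binding site.

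Itgb2, the beta 2 chain that pairs with alpha M, alpha L, alpha X and alpha D, stood at 1.34, 1.97, 2.72 and 0.463 RPM in KO1 to KO4, against 1.97, 6.43, 1.60 and 8.41 RPM in WT1 to WT4. WT2 and WT4 were high, while WT1 and WT3 lay inside the KO range. The log2 fold change was -0.96 (SE 0.41, BH adjusted p = 0.454 from limma), and -0.82 without WT1 and WT4. Itgal, the alpha L chain of LFA-1 on lymphocytes and other leukocytes, stood at 0.501, 0.844, 1.36 and 0.347 RPM in KO, against 1.54, 0.714, 0.932 and 2.44 RPM in WT. The groups overlapped, with KO3 above WT2 and WT3, and the log2 fold change was -0.43 (BH adjusted p = 0.719 from limma).

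Itga4, which pairs with beta 1 or beta 7 and binds Vcam1 and fibronectin, was unlike the other leukocyte chains. It stood at 24.4, 25.3, 32.6 and 32.3 RPM in KO1 to KO4, against 28.2, 24.1, 37.1 and 23.8 RPM in WT1 to WT4. The means were 28.6 ± 4.38 RPM in KO and 28.3 ± 6.22 RPM in WT (SD, n = 4 each), and the 95% interval of the log2 fold change ran from -0.33 to 0.39 (limma). Leukocytes are known to carry it, and so do developing muscle cells in mice, so its level cannot be assigned to 1 cell type. Satellite cell markers summed to 36.6 to 51.1 RPM in KO and 49.7 to 54.2 RPM in WT, and their part in the Itga4 level was not tested.

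The other 5 leukocyte chains had means under 1 RPM and were not tested. Itgax, the alpha X chain of dendritic cells and some macrophages, had 1, 0, 3 and 3 reads in KO1 to KO4, against 9, 6, 2 and 16 reads in WT1 to WT4. WT3 again lay within the KO range. Itgb7, the partner of alpha 4 and alpha E on lymphocytes, totalled 15 reads in KO and 30 in WT, of which 15 came from WT4. Itgae, Itgad and Itgb2l had 0 to 2 reads in any library.

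**Figure D2:**
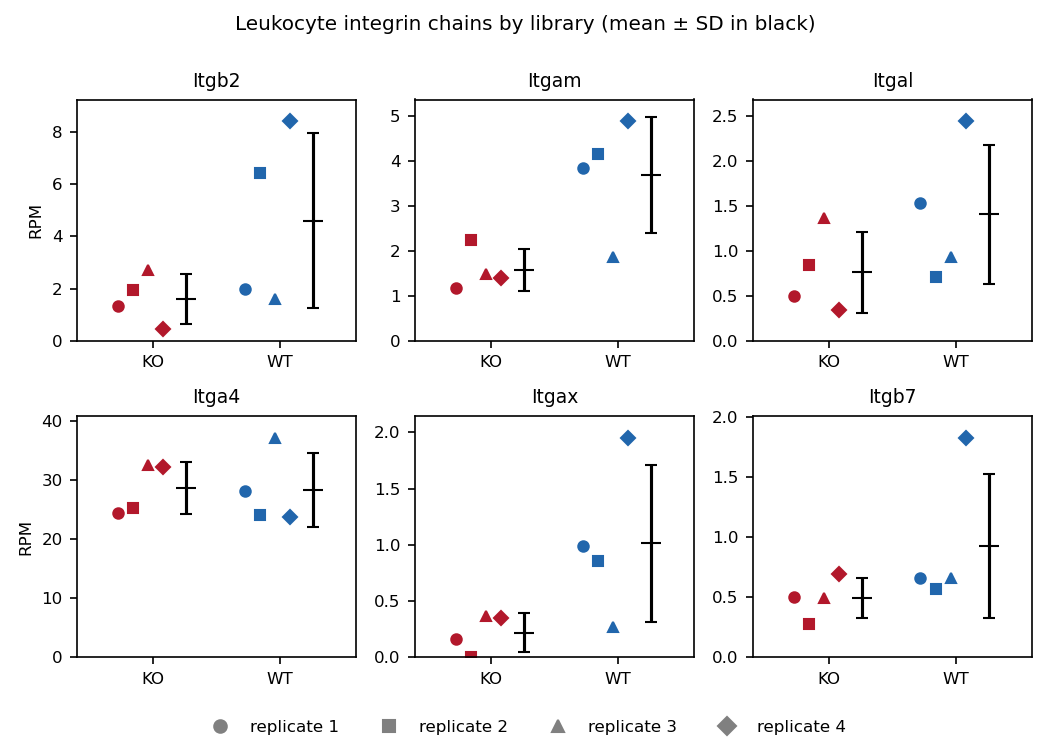
RPM of 6 leukocyte integrin chains in each library, KO left of WT, with the symbol giving the replicate number and the black bar the mean ± SD (n = 4 each). WT4 is the highest library for Itgb2, Itgam, Itgal, Itgax and Itgb7, and Itga4 covers a like range in KO (24.4 to 32.6 RPM) and WT (23.8 to 37.1 RPM).

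Macrophage and pan-leukocyte markers also had lower values in KO, while summed markers of lymphocytes and granulocytes overlapped between the groups. No listed lymphocyte or granulocyte marker reached the filter of 1 RPM, so these were not tested and their overlap says little. In bulk muscle fewer cells of a type and less RNA per cell cannot be told apart. The 15 macrophage and pan-leukocyte markers summed to 37.4, 41.2, 45.9 and 34.15 RPM in KO1 to KO4, against 114.5, 94.3, 56.0 and 247 RPM in WT1 to WT4, and the groups did not overlap. Over all 15, the KO mean was below the WT mean in 14 and above it in 1, and 0 of those tested passed the BH threshold (limma). Some reached the filter of 1 RPM only through WT, so no count or median of the tested ones is given. Lyz2, a lysozyme of macrophages, averaged 16.9 ± 2.69 RPM in KO and 63.0 ± 40.7 RPM in WT (SD, n = 4 each). Ptprc, the CD45 phosphatase of all leukocytes, averaged 1.13 ± 0.593 RPM in KO and 1.91 ± 0.684 RPM in WT (SD, n = 4 each), with overlap. The 8 leukocyte chains other than Itga4, a set chosen after their values were seen, summed to 3.84, 5.485, 6.56 and 3.47 RPM in KO1 to KO4, against 9.10, 12.7, 5.46 and 19.9 RPM in WT1 to WT4. The T and B cell markers Cd3e, Cd3d, Cd3g and Ms4a1 were at 0 to 0.501 RPM in every library, and the lymphocyte list summed to 0.463 to 1.34 RPM in KO and 0.532 to 2.07 RPM in WT. The granulocyte and bone marrow list summed to 2.31 to 2.85 RPM in KO and 1.20 to 5.26 RPM in WT, with the KO mean above the WT mean for S100a8 and Retnlg and below it for 7 other genes. The part of cell composition in the leukocyte chains was not tested.

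Chains of the muscle fibre had small differences, and their groups overlapped. In bulk muscle their RNA cannot be assigned to fibres alone, and the part of cell composition in these chains was not examined. All 6 chains were tested and all 6 had a log2 fold change below 0, where 59.2% of all tested targets did. That of Lamb2 rounded to 0.00. The median of the 6 was -0.26 (-0.32 without WT1 and WT4) against -0.05 over all targets. Of the 6, 1 was lower at an unadjusted p under 0.05 (limma), where 8.56% of all tested targets were, and 0 passed the BH threshold. Itga7, the alpha 7 chain, stood at 41.6, 32.9, 28.8 and 32.1 RPM in KO1 to KO4, against 26.1, 40.6, 35.8 and 40.1 RPM in WT1 to WT4. The highest level was in KO1 and the lowest in WT1, and the interval of the log2 fold change of -0.06 ran from -0.42 to 0.29 (BH adjusted p = 0.956 from limma).

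Itgb1, the beta 1 chain shared by the fibre integrin and by integrins of most other cells, stood at 108, 84.7, 67.2 and 76.3 RPM in KO, against 115, 110, 96.0 and 106 RPM in WT. KO1 lay among the WT libraries and the other KO libraries below them all. The log2 fold change was -0.36 (SE 0.15, BH adjusted p = 0.424 from limma, range over alternatives 0.163 to 1), and -0.31 without WT1 and WT4. The muscle splice form of beta 1 cannot be told from the common form with 1 amplicon per gene.

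Of the laminins, Lama2, the alpha 2 chain, stood at 7.69, 2.81, 3.09 and 2.55 RPM in KO1 to KO4, against 3.84, 8.14, 4.13 and 6.34 RPM in WT1 to WT4. KO1 lay among the WT libraries and the other 3 KO libraries below them, and the log2 fold change was -0.45 (SE 0.29, BH adjusted p = 0.747 from limma). Lamc1, the gamma 1 chain of most laminins, stood at 52.0, 38.8, 37.0 and 33.8 RPM in KO, against 44.9, 50.6, 51.4 and 50.7 RPM in WT. KO1 was the highest of all 8 libraries, and the log2 fold change was -0.30 (SE 0.14, BH adjusted p = 0.567 from limma).

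Lamb1, the common beta chain, stood at 12.5, 5.48, 7.80 and 6.13 RPM in KO1 to KO4, against 5.81, 10.6, 9.18 and 11.7 RPM in WT1 to WT4, again highest in KO1, and all 4 WT libraries lay inside the KO range. Lamb2, the beta chain enriched at the neuromuscular and myotendinous junctions, stood at 114, 169, 114 and 129 RPM in KO, against 104, 156, 120 and 147 RPM in WT. Its mean was 132 ± 26.2 RPM in KO and 132 ± 24.1 RPM in WT (SD, n = 4 each), and the interval of the log2 fold change of 0.00 ran from -0.36 to 0.35 (limma). For 5 of the 6 fibre chains KO1 was the highest KO library. Without KO1 the groups did not overlap for 4 tested chains, Itgb1, Lama2, Lamc1 and Itgb5, where 9.15% of all tested targets then lay lower without overlap, and 4 had an unadjusted p under 0.05 (limma), where 10.1% of all did. Those 4 were Itgb1, Itgam, Lamc1 and Lama2.

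**Figure D3:**
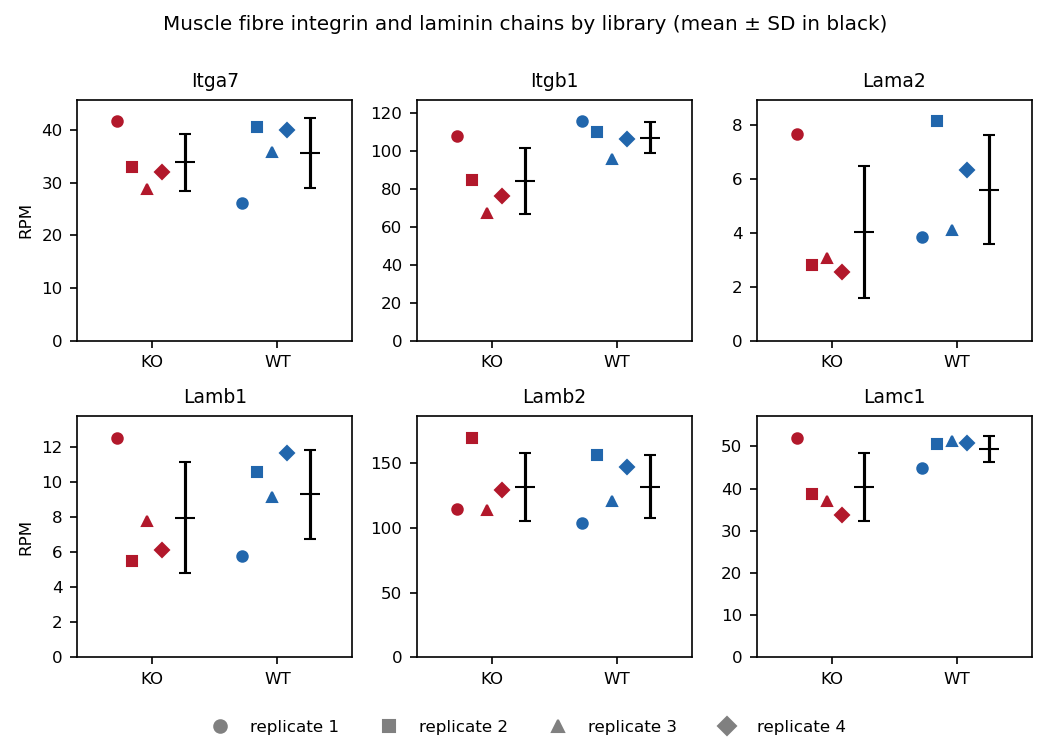
RPM of the 6 fibre chains in each library, KO left of WT, with the symbol giving the replicate number and the black bar the mean ± SD (n = 4 each). KO1 is the highest KO library for Itga7, Itgb1, Lama2, Lamb1 and Lamc1, and the groups overlap for all 6 chains.

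Leukocyte and fibre chains were set against each other through their shared beta chains. The ratio of Itgb2 to Itgb1, on the scale log2(RPM + 1), was -5.54, -4.85, -4.20 and -5.72 in KO1 to KO4, against -5.29, -3.90, -5.22 and -3.51 in WT1 to WT4. WT2 and WT4 were the highest and the other WT libraries lay inside the KO range. The means were -5.08 ± 0.70 in KO and -4.48 ± 0.91 in WT (SD, n = 4 each), a difference of -0.60 (exact two-sided permutation test, p = 0.314, smallest possible p 0.0286). The ratio bears on these 2 genes only, and Itgb1 is not particular to fibres. No test was made of the leukocyte chains against the fibre chains as groups.

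Among receptors of fibronectin and vitronectin, Itgb5, the beta 5 chain that pairs with alpha V, stood at 66.9, 58.9, 66.6 and 60.1 RPM in KO1 to KO4, against 70.1, 79.4, 71.5 and 75.7 RPM in WT1 to WT4. The groups did not overlap, the KO mean was 85.1% of the WT mean, and the log2 fold change was -0.23 (SE 0.11, BH adjusted p = 0.582 from limma). Under median-ratio, TMM and quantile scaling its groups overlapped. Its partner Itgav averaged 40.9 ± 3.42 RPM in KO and 48.2 ± 7.19 RPM in WT (SD, n = 4 each), and its log2 fold change was -0.22.

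Itgb3, the other vitronectin receptor beta chain, known from platelets and osteoclasts, stood at 0.334, 0.984, 0.000 and 0.579 RPM in KO1 to KO4, against 3.95, 0.571, 0.000 and 4.87 RPM in WT1 to WT4. WT1 and WT4 were high and WT2 and WT3 lay within the KO range. The log2 fold change was -0.86 (SE 0.48, BH adjusted p = 0.652 from limma), and without WT1 and WT4 Itgb3 was under the filter. The osteoclast gene Acp5 had the same 2 high libraries, with 0.347 to 3.52 RPM in KO and 130, 16.7, 4.66 and 329 RPM in WT1 to WT4. Of 7 platelet markers, the KO mean was below the WT mean in 4 and above it in 3. Gp9 and Gp6 were at 0 to 0.281 RPM in every library, Ppbp averaged 1.755 ± 0.1015 RPM in KO and 1.61 ± 0.904 RPM in WT, and Pf4 averaged 2.25 ± 0.315 RPM in KO and 6.94 ± 2.41 RPM in WT (SD, n = 4 each). Itga2b, the platelet alpha chain that pairs with beta 3, had 27 reads in all KO and 18 in all WT libraries. The part of bone or platelet RNA in Itgb3 was not tested.

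The other chains of this kind overlapped between the groups. Itga5, the main fibronectin receptor alpha chain, averaged 7.51 ± 1.58 RPM in KO and 9.01 ± 4.13 RPM in WT (SD, n = 4 each), with 15.1 RPM in WT4. Itga8 averaged 5.79 RPM in KO and 6.43 RPM in WT, Itgb8 averaged 1.39 RPM in KO and 1.97 RPM in WT, and Itgb6 averaged 24.5 RPM in KO and 20.8 RPM in WT. Itgb6 and Itga1 had the 2 largest log2 fold changes above 0, at 0.22 and 0.18, with intervals from -0.30 to 0.75 and from -0.16 to 0.52 (limma).

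Collagen-binding chains went apart in sign. Itga1 averaged 24.7 ± 2.75 RPM in KO and 21.9 ± 4.41 RPM in WT (SD, n = 4 each). Itga11, a collagen receptor of fibroblasts and tendon, stood at 2.34, 4.50, 3.09 and 3.70 RPM in KO1 to KO4, against 7.90, 4.43, 2.13 and 11.7 RPM in WT1 to WT4. The high libraries were again WT1 and WT4, and the log2 fold change of -0.61 (BH adjusted p = 0.667 from limma) became 0.07 without them. The 10 tendon and cartilage markers summed to 40.6 to 113 RPM in KO and to 368, 236, 104 and 647 RPM in WT1 to WT4. Fibroblast markers summed to 501 to 912 RPM in KO and 1147 to 2791 RPM in WT. The part of these cells in Itga11 was not tested. Itga2, the platelet and epithelial collagen receptor chain, had 4 reads in all KO and 15 in all WT libraries.

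**Figure D4:**
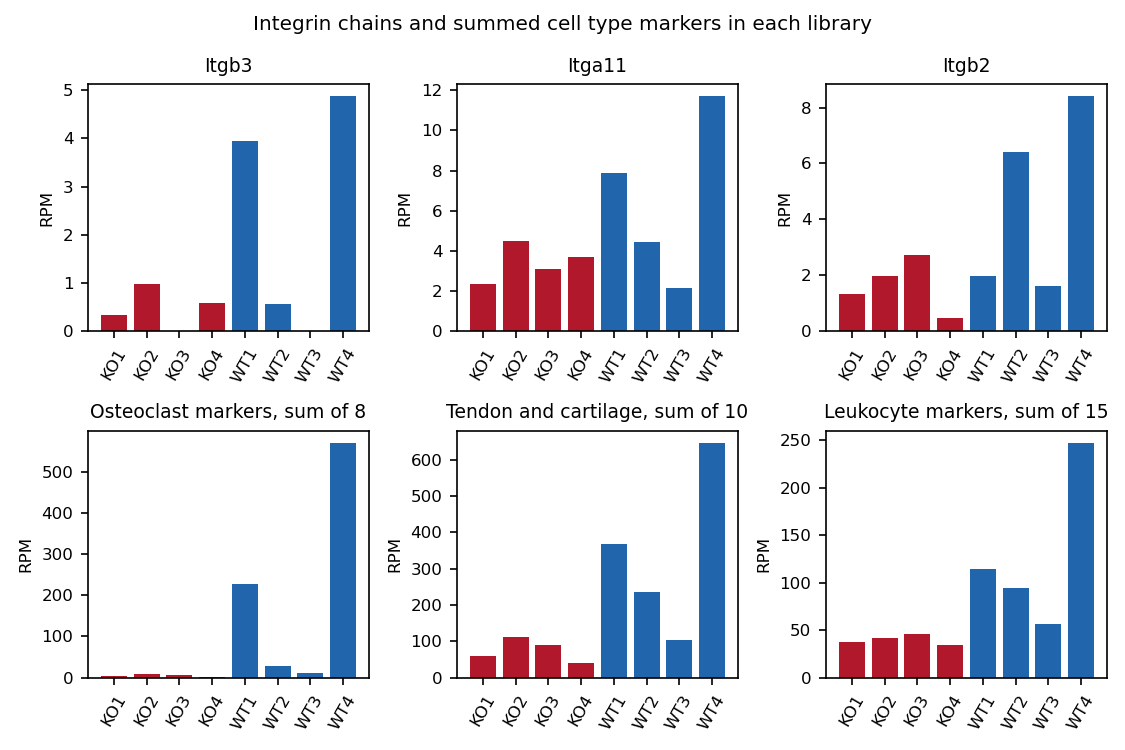
RPM in each library of Itgb3, Itga11 and Itgb2 (upper row) and of the summed osteoclast, tendon and cartilage, and leukocyte markers (lower row). WT1 and WT4 hold the highest levels of Itgb3 and Itga11 and of all 3 marker sums, and Itgb2 is highest in WT2 and WT4.

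The remaining laminin receptors and laminins showed small differences. Itga6, a laminin receptor of vessels and nerve, averaged 32.4 ± 5.79 RPM in KO and 33.6 ± 5.36 RPM in WT, and Itga3 averaged 8.20 ± 2.07 RPM in KO and 8.27 ± 1.78 RPM in WT (SD, n = 4 each). Itgb4, the partner of alpha 6, averaged 11.1 ± 2.21 RPM in KO and 12.8 ± 1.48 RPM in WT (SD, n = 4 each). Itga9, which binds tenascin and Vcam1, averaged 2.10 RPM in KO and 2.85 RPM in WT. Lama4, a chain of vessel basement membrane, averaged 20.2 ± 3.55 RPM in KO and 25.2 ± 2.98 RPM in WT (SD, n = 4 each), and its log2 fold change was -0.32 (BH adjusted p = 0.592 from limma). Lama5, found in vessels and at the synapse, averaged 18.5 RPM in KO and 19.4 RPM in WT. The endothelial markers summed to 467.5 to 537 RPM in KO and 515.5 to 578 RPM in WT, and their median on the log2 scale was -0.03. Of these 10 markers, 7 were below 0 and 3 above. At an unadjusted p under 0.05 (limma), 2 were lower, Ptprb (-0.45) and Emcn (-0.31), and 0 higher, where 8.56% and 0.663% of all tested targets were. The epithelial chains were near the floor. Lama3 averaged 1.07 RPM in KO and 1.58 RPM in WT, and Lamb3 and the embryonic chain Lama1 had 0 to 2 reads per library. Epithelial markers summed to 0.110 to 0.488 RPM in any library.

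Proteins that work with these chains were examined as lists. Inside the cell, 24 of 28 genes of the integrin adhesion complex were tested, 3 had an unadjusted p under 0.05 and were lower (limma), 0 were higher, and the median log2 fold change was -0.10. Over all targets 8.56% were lower at that level, so 3 of 24 is near the background share. Without WT1 and WT4 this was 1 lower, where the background was 3.97%. The 3 were Tns3, a tensin, Flnc, a muscle filamin, and Parva, a parvin, with log2 fold changes of -0.61, -0.39 and -0.32. Itgb1bp2, or melusin, a muscle protein that binds the tail of beta 1, averaged 110.5 ± 13.6 RPM in KO and 95.5 ± 11.4 RPM in WT (SD, n = 4 each), with overlap. Outside the cell, 14 basement membrane partners of laminin were tested, and 5 were lower and 1 higher at an unadjusted p under 0.05 (limma). Over all tested targets 8.56% were lower and 0.663% higher at that level. The median of the 14 was -0.24. Without WT1 and WT4, 3 were lower and 0 higher, where the background was 3.97% lower, and the median was -0.20. Nid1, which links laminin to collagen IV, stood at 82.1, 59.8, 72.5 and 68.3 RPM in KO, against 102, 96.4, 102 and 116 RPM in WT, without overlap, and had a log2 fold change of -0.56 (BH adjusted p = 0.125 from limma). Egflam, or pikachurin, a ligand of dystroglycan, was the 1 higher gene, at 3.71 to 4.05 RPM in KO and 1.75 to 3.29 RPM in WT (log2 fold change 0.47, BH adjusted p = 0.417 from limma). Dag1, which encodes dystroglycan, the other laminin receptor of the fibre, averaged 300 ± 44.6 RPM in KO and 309 ± 5.89 RPM in WT (SD, n = 4 each).

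Ligands of integrins other than laminin were lower in KO for most of the list. Of 13 tested, 10 were lower at an unadjusted p under 0.05 (limma) and 0 higher, where 8.56% and 0.663% of all tested targets were. Their median was -0.82, against -0.05 over all targets, and 0 passed the BH threshold. Fn1, fibronectin, stood at 12.9, 9.0, 7.43 and 5.44 RPM in KO1 to KO4, against 39.8, 28.9, 14.6 and 116 RPM in WT1 to WT4, without overlap. Spp1, or osteopontin, a ligand of alpha V beta 3 made in bone, stood at 2.67, 7.59, 5.69 and 2.31 RPM in KO, against 186, 27.9, 8.38 and 329 RPM in WT. WT1 and WT4 were the highest libraries for both, as they were for the bone genes. Vtn, vitronectin, stood at 32.6, 37.8, 38.7 and 35.1 RPM in KO, against 60.4, 45.6, 49.0 and 51.2 RPM in WT, also without overlap. Without WT1 and WT4, 7 of the 13 were lower at an unadjusted p under 0.05 (limma), where 3.97% of all targets were. The median was then -0.66, against -0.10 over all targets.

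Lamc3 was the 1 chain that passed a test of sex, which the labels do not give. Xist and 4 Y-linked genes put replicates 1 and 3 with males and replicates 2 and 4 with females in both groups. With genotype in the model, 4 of the 27 chains had an unadjusted p under 0.05 for sex, where 10% of all tested targets did (limma), and 1 passed the BH threshold, where 0.6% did. That chain was Lamc3, a gamma chain of minor laminins, at 2.51 and 2.10 RPM in male KO and 2.85 and 3.06 RPM in male WT, against 0.703 and 0.347 RPM in female KO and 1.43 and 0.365 RPM in female WT. Males did not overlap with females, with a male minus female log2 difference of 1.12 (SE 0.22, BH adjusted p = 0.0413 from limma). The call was lost when any 1 library other than WT2 was left out (log2 difference 0.96 to 1.29, adjusted p 0.0714 to 0.157, and 0.0282 without WT2). Itgb6 was at 25.8 to 31.4 RPM in males and 13.6 to 25.3 RPM in females (0.63, BH adjusted p = 0.159 from limma), and Lamb2 at 104 to 120 RPM in males and 129 to 169 RPM in females (-0.41, BH adjusted p = 0.216 from limma). These 3 chains were chosen after their values were seen. For the interaction of sex with genotype, 3 of the 27 had an unadjusted p under 0.05 (limma), where 4.66% of all tested targets did, and 0 passed the BH threshold, where 0.0364% did.

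**Figure D5:**
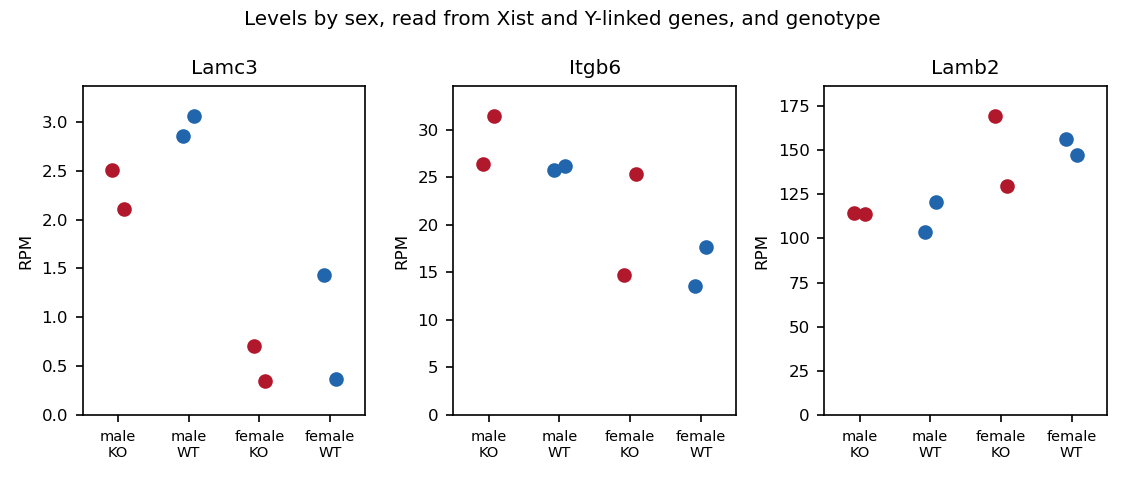
RPM of Lamc3, Itgb6 and Lamb2 in each library, grouped by sex as read from Xist and Y-linked genes and by genotype, with 2 libraries in each column. Lamc3 and Itgb6 are higher in all 4 male than in all 4 female libraries, and Lamb2 is lower.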

How the data were processed

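RNA of TA muscle was isolated with TriZol and made into libraries with an Ion AmpliSeq mouse transcriptome panel on an Ion Chef robot, per the labels' protocols. The authors deposited 1 table of RPM values, reads scaled to the total on targets, and Transcriptome Analysis Console is named in the submitters' processing notes. The sources used here give no aligner, build or counting rule.

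Columns were matched to samples by barcode. RPM values were whole multiples of 1 read, so reads were recovered by division. In each library 100.0% of the values of all targets, those at 0 included, lay no more than 0.1 read off a whole number. On these reads edgeR 4.0.16 called 1 target and DESeq2 1.42.0 called 149, while limma, fitted to the RPM values, called 3. Replicates of a group differed by more than counting noise, with chi-square values of 13.42 to 38.15 per degree of freedom. The labels do not say that each library is a separate mouse, so p-values measure the spread between libraries. Floors from reads cover counting error only.

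KO was compared with WT on log2(RPM + 1) for the 11004 targets whose mean reached 1 RPM. The fit used limma 3.58.1 under R 4.3.3 (intensity trend, two-sided, BH over all targets, threshold 0.05). The added 1 RPM shrinks fold changes of low genes. The Itgb2 to Itgb1 ratio had an exact permutation test. Sex and its interaction with genotype were fitted likewise, after the data were seen. The members and lists were chosen with earlier results of these data known, and the procedure was tested on simulated reads. Values by library are given for tested fibre and leukocyte chains and for other members with an unadjusted p under 0.05 or no overlap; from each other list up to 4 genes with the smallest p and the 2 most abundant may be named. Other genes, and the values by library of Itgb3, Itga11, Itgax and Lamc3, were chosen after their values were seen. 1 list gene, Ccn2, was found in the table under its older symbol. Values of some genes are not reported here. Alternatives were other pseudocounts, filters and scalings, no trend, library weights, a replicate block, sex as a term, edgeR, DESeq2 and left-out libraries. Those for sex and for the count without overlap were chosen after seeing the data.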

Additional observations from a re-analysis of the deposited data

Results flagged for a closer look

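In 3 of 54 groups of 4 values, taken over the 27 tested chains, 1 library stood far from the other 3 (Dixon's test at 95%), and chance alone gives about 1 group in 20. Lama2 in KO1 was at 7.69 RPM, while the other KO libraries were at 2.55 to 3.09 RPM. Lama3 in KO2 was at 0.422 RPM, while the other KO libraries were at 1.24 to 1.34 RPM. Lamc1 in WT1 was at 44.9 RPM, while the other WT libraries were at 50.6 to 51.4 RPM.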

How the results depend on the processing

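The count of 0 chains past the BH threshold was the same under every alternative run but 1, the left-out WT3 (range over left-out libraries 0 to 1). In that run 130 of all 10994 targets passed, where 3 of 11004 did in the main run. The 3 chains lower at an unadjusted p under 0.05 became 6 with no filter, where every chain was tested, and 6 with library weights. They became 1 with a filter at 10 RPM, 0 without WT1 and WT4 and 1 to 6 when 1 library was left out. Over all targets, 1430 of 21324 were lower with no filter, 1120 of 11004 with library weights and 422 of 6696 at 10 RPM. Without WT1 and WT4 it was 432 of 10873, and 605 to 1111 targets with 1 library left out. The 1 chain without overlap became 0 under median-ratio, TMM and quantile scaling, 3 without WT1 and WT4 (Itgb5, Itgb8 and Lama4, background 10.8%) and 1 to 4 with 1 library left out. The median of leukocyte chains was -0.97 and -0.27 at pseudocounts of 0.1 and 5 RPM, -1.0 in edgeR and in DESeq2, and 0.03 with a filter at 10 RPM, which left Itga4 alone. Left-out libraries gave -0.78 to -0.51, and -0.43 to -0.18 for fibre chains. The Itgb2 to Itgb1 difference kept its sign in all alternatives run (-0.98 to -0.13, exact permutation p 0.229 to 0.743). With libraries left out or with the replicate block no p under 0.05 was possible, so those runs could not call the difference.

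The signs of 10 chains turned, none of them past a threshold, and the cause was not tested. Itga3 was 0.04 under median-ratio and TMM and 0.11 under quantile scaling, 0.05 with library weights, 0.06 in edgeR and 0.07 in DESeq2. Itga6 was 0.01 under median-ratio and TMM scaling and in edgeR and 0.02 in DESeq2. Lamb2 was 0.06 under median-ratio and TMM scaling, 0.00 under quantile scaling and library weights, and 0.05 in edgeR and DESeq2. Itga8 was 0.02 under quantile scaling. Without WT1 and WT4, Itga1 was -0.06, Itga4 -0.07 and Itga11 0.07. With 1 library left out the ranges crossed 0 for Itga3 (-0.15 to 0.14), Itga4 (-0.05 to 0.16), Itga5 (-0.32 to 0.08), Itga6 (-0.15 to 0.05), Itga7 (-0.20 to 0.01), Lama5 (-0.17 to 0.01) and Lamb2 (-0.13 to 0.08).

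Over all targets, 942 were lower and 73 higher at an unadjusted p under 0.05, and 730 and 383 under median-ratio, 745 and 363 under TMM and 594 and 416 under quantile scaling. Same-numbered libraries share their sex, as read from the data, and correlated at 0.003 to 0.257, not all above 0.1. KO1 correlated best with WT3 (0.225) and KO3 with WT1 (0.279), of the same sex, so the numbers were not taken as pairs. With the replicate block 0 chains passed and 4 were lower at an unadjusted p under 0.05, where 960 of all 11004 targets were. The Itgb2 to Itgb1 difference was then -0.60 (exact permutation p = 0.5, where no p under 0.05 was possible). The Lamc3 difference by sex also lost its call at a pseudocount of 0.1 RPM, with no filter and without WT1 and WT4. Chains with a mean under 1 RPM were not tested at this depth.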

Other observations

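In Itgb2, Lama2 and Lamb1 the difference between KO and WT muscle was not alike in the sexes at an unadjusted p under 0.05 (limma). These were 3 of 27 chains, where 4.66% of all tested targets had such a p, and 0 of the 3 passed the BH threshold. For Itgb2 the 2 male KO libraries were at 1.34 and 2.72 RPM against 1.97 and 1.60 RPM in male WT, and the female KO libraries at 1.97 and 0.463 RPM against 6.43 and 8.41 RPM in female WT (interaction of 2.09 on the log2 scale, BH adjusted p = 0.515 from limma). Female WT muscle thus held the 2 highest Itgb2 levels of the 8 libraries. For Lama2 the interaction was 1.42 (BH adjusted p = 0.931 from limma) and for Lamb1 1.22 (BH adjusted p = 0.913 from limma). Lama2 was at 7.69 and 3.09 RPM in KO1 and KO3 against 3.84 and 4.13 RPM in male WT. In females it was at 2.81 and 2.55 RPM in KO against 8.14 and 6.34 RPM in WT. Lamb1 was at 12.5 and 7.80 RPM in KO1 and KO3 against 5.81 and 9.18 RPM in male WT. In females it was at 5.485 and 6.135 RPM in KO against 10.6 and 11.7 RPM in WT. KO1 was the highest male library for both genes, and the interactions were not fitted without it. With 2 libraries per sex and genotype, these 3 interactions were not tested in other samples.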
